A study of Mus musculus with 6 samples.

Results

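Ribosome biogenesis and RNA polymerase I were followed here through 45 genes, taken as every row of the deposited expression table whose symbol is on a fixed list of ribosome biogenesis and RNA polymerase I genes. All 45 had a row among the 16423 gene symbols of the table, and all 45 were abundant enough to be tested, with a mean of at least 1 FPKM over the 6 libraries. FPKM is a fragment count divided by gene length and by library total, so it allows levels to be compared between genes per unit length. The cells were C3H10T1/2, a mouse mesenchymal stem cell line. In both groups they were taken through adipogenic differentiation with 3-isobutyl-1-methylxanthine, dexamethasone, insulin, triiodothyronine, indomethacin and rosiglitazone for 2 days, then with triiodothyronine, insulin and rosiglitazone for a further 2 days. On day 4 the cells received either a control siRNA (siNC, labelled wild type, 3 libraries) or siRNAs against YBX1 (siYBX1, labelled YBX1 knockdown, 3 libraries), and RNA was taken 48 h later. YBX1 belongs to the cold-shock domain family and binds nucleic acids. The knockdown is transient and partial, all libraries come from 1 cell line, and separate cultures are not stated for the replicates. The p-values therefore speak of the spread between these libraries, part of which may be technical.

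Ribosomes are assembled mainly in the nucleolus. RNA polymerase I transcribes the repeated ribosomal DNA into a long precursor, which small nucleolar ribonucleoproteins (snoRNPs) modify and guide through folding. A large assembly called the small-subunit processome, and a separate set of 60S assembly factors, then cut the precursor and build it with ribosomal proteins into the subunits. The pathway is costly for a cell and is known to follow growth signals and proliferation, with the transcription factor MYC as a well-known activator of many of its genes.

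The libraries held between 31957411 and 35410308 reads, as recovered from the steps of the deposited values. Ybx1 itself was at 135, 134 and 129.6 FPKM in siNC and at 59.3, 67.9 and 61.3 FPKM in siYBX1, so 47.3% of the control mean was left (log2 fold change -1.07 with SE 0.06, by limma adjusted p = 3.98e-06). Among the controls siNC replicate 1 stood apart, its recovered reads differing from the other control libraries by 19.9 to 23.2 chi-square units per gene, against 4.64 between those libraries. The series calls the cells brown adipocytes. Of the adipocyte markers none of the 8 tested passed by limma (3 had an unadjusted p under 0.05), but 3 were called lower without siNC replicate 1, 1 higher without siNC replicate 2 and 1 lower without siYBX1 replicate 1. Adipoq (468 to 707 FPKM) and Fabp4 (1136 to 1953 FPKM) were abundant in every library, while Cebpa, at 0.226 to 0.626 FPKM, was too low to be tested. Plin1 was the 1 of the 8 whose groups did not overlap, lower in siYBX1 (0.883-fold, adjusted p = 0.0537, limma). It passed after the length correction described below (adjusted p = 0.0462, limma). Of the brown adipocyte markers Cidea (16.5 to 23.2 FPKM) and Cox8b (101 to 174 FPKM) were present, with overlapping groups. Prdm16 and Elovl3 stayed under 0.1 FPKM on average, and Ucp1 was not analysed here. Cpt1b (1.30 to 2.32 FPKM, adjusted p = 0.0694, limma) and Ppargc1a (0.580 to 0.786 FPKM, too low to be tested) were lower in every siYBX1 library than in every control. Dio2 (0.179 to 0.355 FPKM) and Pank1 (1.36 to 1.57 FPKM) had overlapping groups. None of the 4 brown markers tested passed. All 4 endothelial markers with a row averaged under 0.1 FPKM. So did Ptprc, Adgre1, Itgam and Csf1r of the 6 macrophage markers, while Cd14 was at 4.45 to 6.60 FPKM. Cd68 was at 6.80 to 24.3 FPKM, highest in siNC replicate 1, with overlapping groups (log2 fold change -0.69, adjusted p = 0.0681, limma), and 1 marker of this list was called lower without siNC replicate 2. Sums of other marker lists also differed between the groups. The 6 preadipocyte and fibroblast markers summed to 501 to 523 FPKM in siNC and 463 to 485 FPKM in siYBX1, most of it Ly6a (adjusted p = 0.126, limma, and 0.0107 after the length correction described below), and neither of the tested members was called. The 7 proliferation markers summed to 191 to 197 FPKM in siNC and 142 to 155 FPKM in siYBX1, with 6 called lower (5 to 7 when 1 library was left out), and the 6 smooth muscle markers summed to 504 to 554 and 1727 to 1793 FPKM, with 3 called higher, Acta2, Tagln and Actg2. Acta2 alone made up 484 to 537 FPKM of the control sums. The other 3, Des, Myh11 and Cnn1, were at 0.895, 0.660 and 0.735 of their control means. Of these, Myh11 (0.0751 to 0.142 FPKM) and Cnn1 (0.0696 to 0.1396 FPKM) were too low to be tested, and Des did not pass (adjusted p = 0.416, limma). Des and Cnn1 had overlapping groups, and Myh11 did not. The part of any of these in the differences described next was not tested, and in bulk samples fewer cells of a type and less RNA per cell cannot be told apart.

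The 45 genes as a whole changed little after Ybx1 knockdown. By limma on log2(FPKM + 1), with p-values adjusted by Benjamini and Hochberg's method over all 10341 genes tested and a threshold of 0.05, 7 of the 45 rose and 1 fell in siYBX1, and 37 did not pass. Those that rose were Polr1c and Polr1d (polymerase subunits), Nop58 (a snoRNP scaffold), Npm1 (nucleophosmin), Imp3 and Emg1 (small-subunit processome) and Ebna1bp2 (60S assembly). The one that fell was Utp20 (small-subunit processome). The 8 calls are 17.8% of the genes, against 20.6% of all genes tested, so the share called is near the background. By direction, 15.6% rose against 9.54% of all genes tested, and 2.22% fell against 11.1%. Over all genes 46.3% of the calls were rises, and 29.6% after each library was rescaled to TPM, where 6 of the 45 rose and 3 fell. The differences were small. The log2 fold changes ran from -0.32 to 0.51 with a median of 0.06, beside a median of -0.01 over all genes tested, and 1 gene, Polr1d, reached 0.5. The groups did not overlap for 25 of the 45 (55.6%, against 40.9% of all genes tested), with 18 higher (19.0% of all genes) and 7 lower (21.9% of all genes). Summed over the 45, the levels were 1439, 1528 and 1517 FPKM in siNC and 1674, 1635 and 1561 FPKM in siYBX1. These sums did not overlap, and siNC replicate 1 was the lowest. The same held for the sum over all genes tested, at 394958, 408109 and 408332 FPKM in siNC and 423822, 421923 and 410811 FPKM in siYBX1. The number called rested on single libraries. It was 3 (2 higher, 1 lower) without siYBX1 replicate 2 and 5 (4 higher, 1 lower) without siYBX1 replicate 1. Over all genes tested the number fell likewise, from 2132 to 1306 and 1199.

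**Figure D1:**
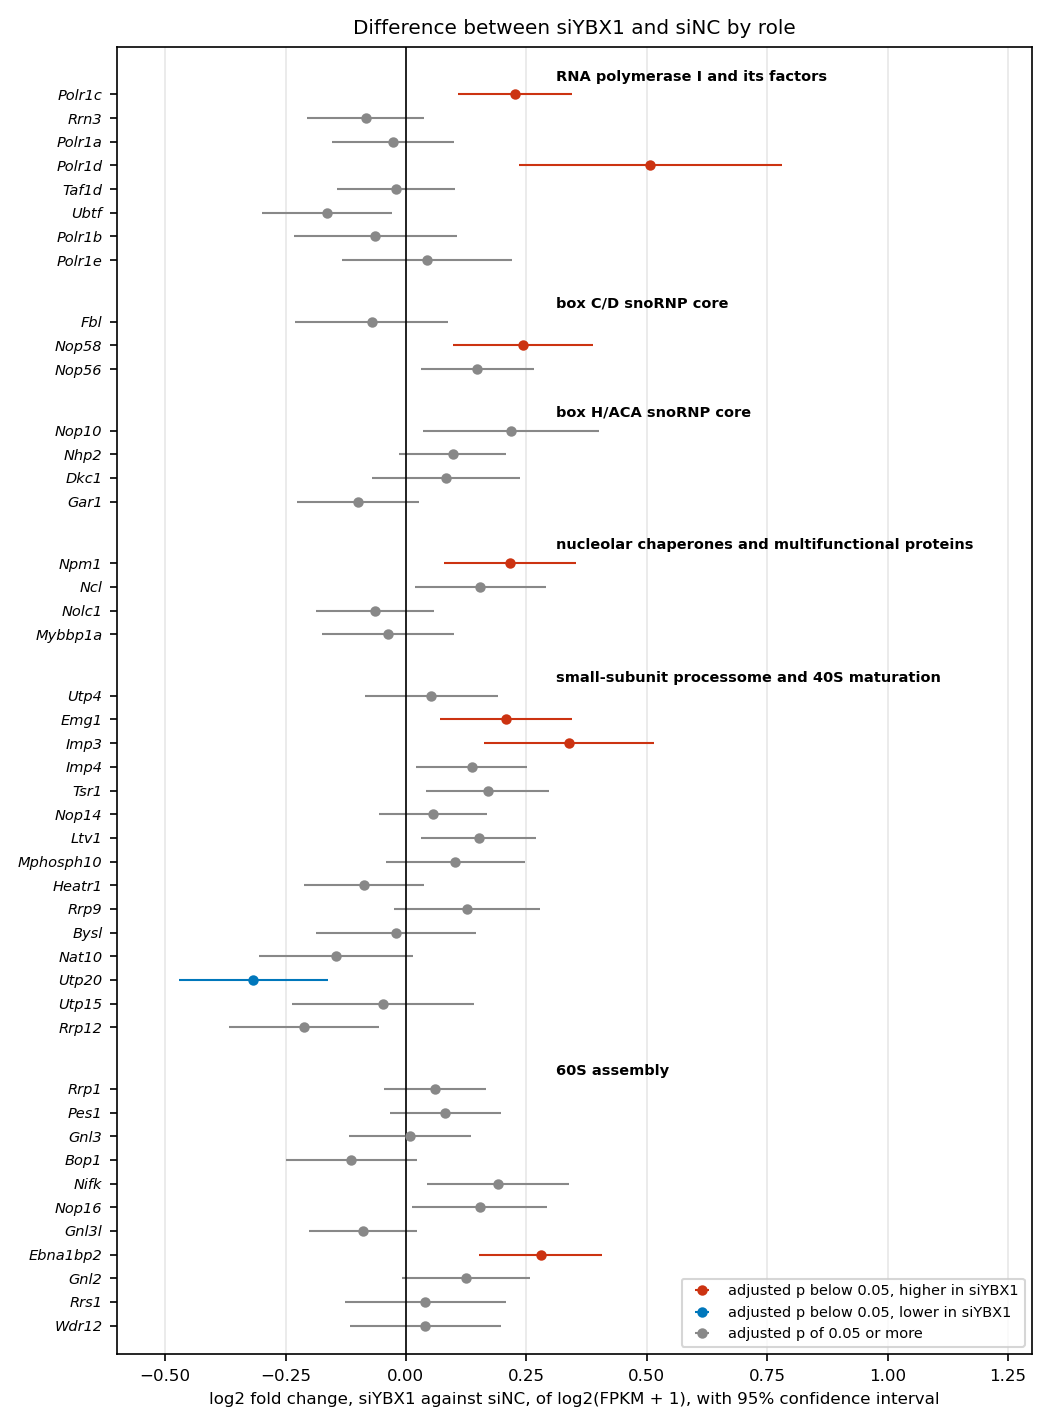
The log2 fold change of each of the 45 genes, siYBX1 against siNC, is plotted with its 95% confidence interval and grouped by role. Red points are the 7 genes called higher and the blue point is Utp20, called lower, and Polr1d lies farthest to the right at 0.51.

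RefSeq promoters could be matched by symbol to 38 of the 45 genes. The 250 bases before the start are shown for the 5 called genes whose call was lost in at most 2 of 14 other settings, a choice made from these same data. They are in lower case with any CCAAT box (CCAAT or ATTGG) in capitals, 5′ to 3′, in the build GRCm38.p6 of the RefSeq table.
Polr1c, chr17:46248046-46248295, minus strand: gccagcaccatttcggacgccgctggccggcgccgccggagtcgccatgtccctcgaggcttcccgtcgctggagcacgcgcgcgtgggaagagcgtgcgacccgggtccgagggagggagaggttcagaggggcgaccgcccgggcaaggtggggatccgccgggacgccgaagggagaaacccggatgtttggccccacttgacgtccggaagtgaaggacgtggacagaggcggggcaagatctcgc
Polr1d, chr5:147077096-147077345, plus strand: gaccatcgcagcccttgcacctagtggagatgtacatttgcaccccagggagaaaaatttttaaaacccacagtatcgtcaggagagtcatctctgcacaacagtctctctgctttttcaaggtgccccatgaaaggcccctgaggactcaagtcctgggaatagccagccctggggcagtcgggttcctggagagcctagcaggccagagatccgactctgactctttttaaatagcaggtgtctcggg
Imp3, chr9:56937250-56937499, plus strand: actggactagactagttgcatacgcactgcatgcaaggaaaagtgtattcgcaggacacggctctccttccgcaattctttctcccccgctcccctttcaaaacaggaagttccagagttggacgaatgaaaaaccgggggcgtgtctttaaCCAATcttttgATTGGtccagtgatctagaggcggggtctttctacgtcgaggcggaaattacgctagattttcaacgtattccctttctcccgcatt
Ebna1bp2, chr4:118620549-118620798, plus strand: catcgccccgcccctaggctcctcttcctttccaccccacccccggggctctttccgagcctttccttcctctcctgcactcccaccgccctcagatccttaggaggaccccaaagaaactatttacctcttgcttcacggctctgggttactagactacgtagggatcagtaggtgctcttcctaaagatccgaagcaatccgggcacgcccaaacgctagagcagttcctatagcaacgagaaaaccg
Utp20, chr10:88826815-88827064, minus strand: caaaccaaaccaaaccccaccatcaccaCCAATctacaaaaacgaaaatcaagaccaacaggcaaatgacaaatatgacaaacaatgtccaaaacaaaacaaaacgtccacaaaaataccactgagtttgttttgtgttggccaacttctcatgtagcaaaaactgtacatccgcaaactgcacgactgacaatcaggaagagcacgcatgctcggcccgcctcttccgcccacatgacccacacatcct
Imp3 held a pair of CCAAT boxes and Utp20 held 1, while the promoters of Polr1c, Polr1d and Ebna1bp2 held none in this window. CCAAT boxes were sought because YBX1 is named for the Y-box, CTGATTGG, which contains an inverted one. Over both strands, CCAAT was in 11 of the 45 promoter windows of the 38 genes (24.4%), against 33.8% of 32851 windows of the same length. The longer CTGATTGG, whose matches are also CCAAT matches, was in 1, that of Nop56 (2.22% against 3.83%). The E-box CACGTG, the textbook binding site of MYC and MAX, was in 2 windows, those of Imp4 and Rrn3 (4.44% against 6.02%). Matches are descriptions of these letters. There are more windows than genes because some genes have more than 1 start in the table.

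Within the polymerase and its factors 2 of 8 genes rose and none fell, with a median log2 fold change of -0.02. Polr1d encodes a small subunit that RNA polymerase I shares with RNA polymerase III. It was at 9.36, 9.58 and 12.7 FPKM in siNC and at 13.9, 18.6 and 13.8 FPKM in siYBX1, 1.46 times the control mean (log2 fold change 0.51 with SE 0.12, by limma adjusted p = 0.0165). The groups did not overlap, but siNC replicate 3 lay close to the lower siYBX1 libraries and siYBX1 replicate 2 lay well above the other siYBX1 libraries. Without siYBX1 replicate 2 the log2 fold change was 0.37 and the adjusted p 0.0546. Polr1c encodes the partner of that subunit, likewise shared by both polymerases, and was at 31.7, 34.1 and 33.4 FPKM in siNC and at 37.7, 40.7 and 38.3 FPKM in siYBX1 (1.18-fold, log2 fold change 0.23 with SE 0.05, by limma adjusted p = 0.0145). Every siYBX1 library lay above every siNC library, and without siYBX1 replicate 2 the adjusted p was 0.0620.

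The subunits that belong to RNA polymerase I alone did not pass. Polr1a, the largest subunit, was 19.3 ± 1.22 FPKM in the controls and 18.9 ± 0.318 FPKM after knockdown (SD, n = 3 each, the order used for all pairs of means below), and its log2 fold change of -0.03 had a 95% confidence interval of -0.15 to 0.10. Polr1b, the second-largest subunit, was 3.26 ± 0.214 and 3.08 ± 0.323 FPKM, and Polr1e 2.62 ± 0.0297 and 2.74 ± 0.371 FPKM. Among the initiation factors, Rrn3, which brings the polymerase to its promoter, was 29.4 ± 1.23 and 27.6 ± 1.09 FPKM, and Taf1d, a subunit of the promoter selectivity factor, 12.4 ± 0.461 and 12.2 ± 0.379 FPKM. Ubtf, the factor that coats active ribosomal DNA, was at 12.0, 12.5 and 11.04 FPKM in siNC and at 10.6, 10.1 and 10.6 FPKM in siYBX1. Its groups did not overlap, but the log2 fold change of -0.16 did not pass (adjusted p = 0.0791, limma). It did with TPM (adjusted p = 0.0431) and with voom on recovered reads (adjusted p = 0.0451).

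The remaining polymerase genes were taken from a list of 18 further subunits and factors with values, of which 1 rose and 1 fell. Polr2f, a subunit shared by all nuclear polymerases, rose from 66.2 ± 3.56 to 78.0 ± 4.16 FPKM (log2 fold change 0.23, adjusted p = 0.0207, limma). This call did not hold without siNC replicate 3, siYBX1 replicate 1 or siYBX1 replicate 2. The other shared subunits, named after their values were seen, did not pass. Their log2 fold changes were 0.25 for Polr2k, 0.16 for Polr2h, 0.07 for Polr2l and -0.11 for Polr2e. Tcof1, which encodes the nucleolar protein treacle, fell from 8.40 ± 0.849 to 6.995 ± 0.308 FPKM (log2 fold change -0.23, adjusted p = 0.0486, limma), and held that call in 1 of the 6 fits that left out a library, the one without siNC replicate 3. In people, changes in TCOF1, POLR1B, POLR1C and POLR1D are known causes of Treacher Collins syndrome, so that this disease group here holds 2 genes that rose, 1 that fell and 1 that did not pass.

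**Figure D2:**
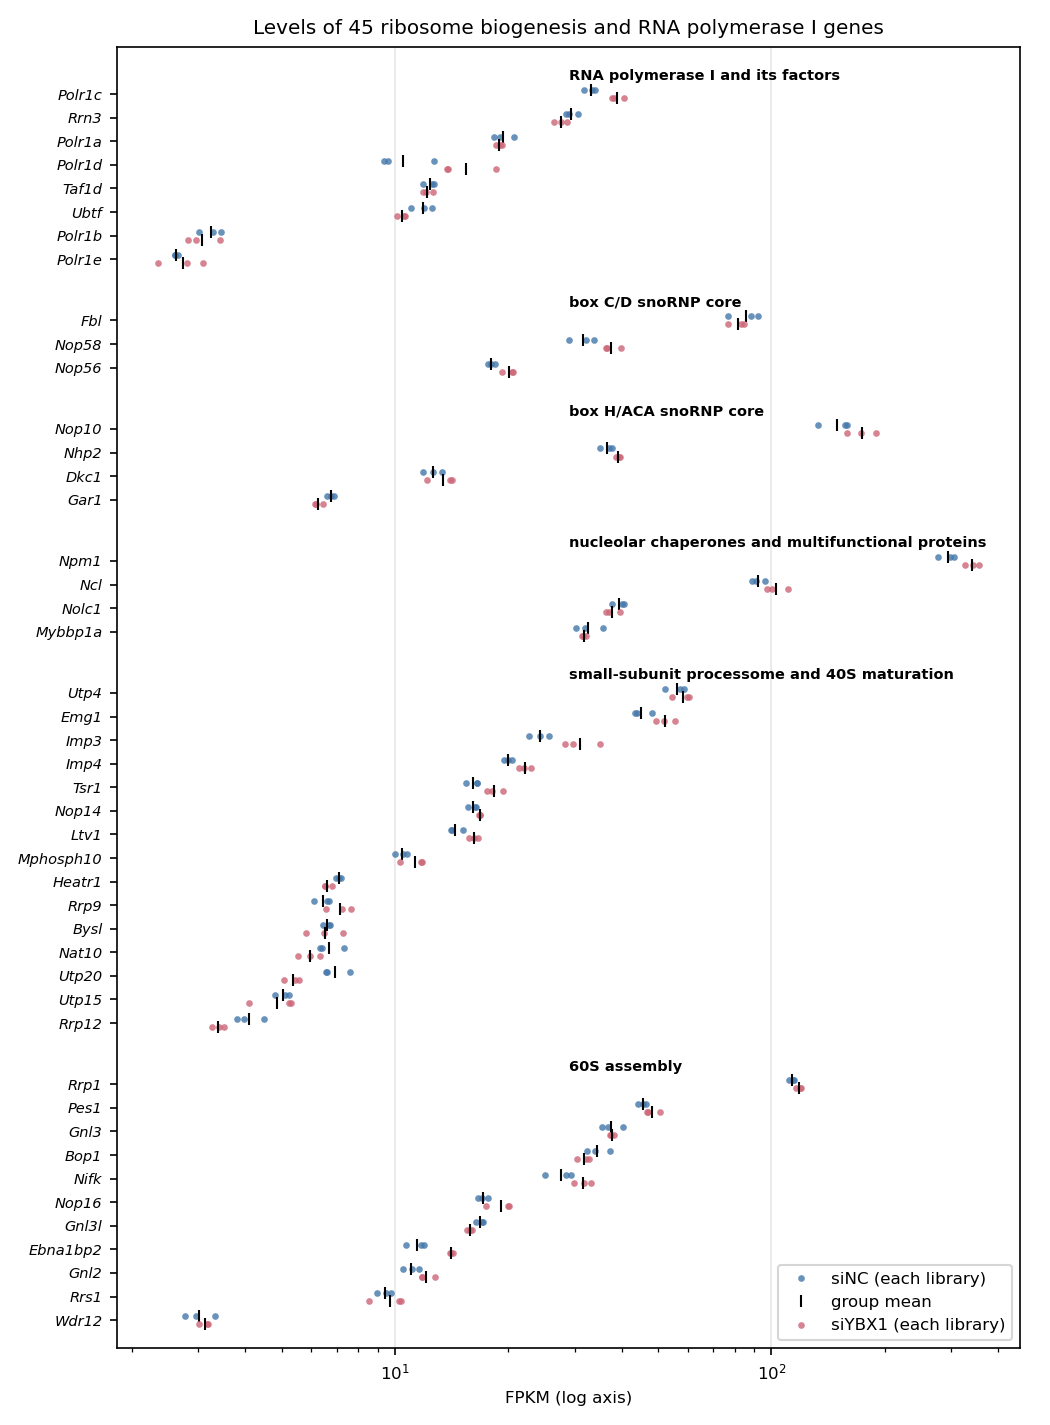
Each point is the FPKM of a gene in 1 library on a log axis, blue for siNC and red for siYBX1, with black bars for the group means. Levels run from 2.68 FPKM for Polr1e to 318 FPKM for Npm1 over the 6 libraries, a far wider range than any difference between the groups.

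The snoRNPs come in 2 classes. Box C/D particles methylate ribosomal RNA and box H/ACA particles convert uridines to pseudouridine. Of the 3 box C/D core genes 1 rose and none fell. Nop58 was at 28.9, 33.8 and 32.2 FPKM in siNC and at 39.9, 36.5 and 36.3 FPKM in siYBX1 (1.19-fold, log2 fold change 0.24 with SE 0.07, by limma adjusted p = 0.0262). All siYBX1 libraries lay above the controls, but the call was lost without siNC replicate 3 (adjusted p = 0.0545), siYBX1 replicate 1 (0.103) or siYBX1 replicate 2 (0.0546). Nop56, the paired scaffold protein, was at 17.6, 18.0 and 18.5 FPKM in siNC and at 20.4, 20.6 and 19.2 FPKM in siYBX1, groups that did not overlap (log2 fold change 0.15, adjusted p = 0.0713, limma). Fbl, the methyltransferase fibrillarin, was at 76.7, 88.1 and 92.3 FPKM in siNC and at 82.8, 84.5 and 76.7 FPKM in siYBX1. Its groups overlapped, and its log2 fold change was -0.07 (adjusted p = 0.510, limma).

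None of the 4 box H/ACA core genes passed by limma, and 1, Nop10, had an unadjusted p under 0.05. With voom on recovered reads none passed either. Nop10 was at 133, 159 and 157 FPKM in siNC and at 189, 174 and 159 FPKM in siYBX1, groups that overlapped, with siNC replicate 1 lowest (log2 fold change 0.22, adjusted p = 0.0838, limma). Without siNC replicate 1 its log2 fold change was 0.14. Nhp2 was 36.6 ± 1.39 and 39.2 ± 0.428 FPKM and Dkc1, the pseudouridine synthase dyskerin, 12.6 ± 0.717 and 13.5 ± 1.10 FPKM. Gar1 was the only core gene of this class with a negative log2 fold change (-0.10, adjusted p = 0.235, limma), at 6.76, 6.90 and 6.62 FPKM in siNC and 6.15, 6.44 and 6.13 FPKM in siYBX1. Per unit length the 4 partners were far from equal in level, with Nop10 at 162 FPKM and Gar1 at 6.50 FPKM over the 6 libraries. Of 10 snoRNP assembly genes with values 1 passed, Pih1d1, a part of the chaperone complex that helps to assemble these particles, which fell from 15.7 ± 0.725 to 13.4 ± 0.584 FPKM (adjusted p = 0.0243, limma). This call was lost without siYBX1 replicate 1 or siYBX1 replicate 3.

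Partners of a complex were also compared as ratios of FPKM within each library, which no scaling of a whole library can alter. The 15 ratios were chosen after their values were seen, so they are given as a description with no test. In 7 of them the groups did not overlap and in 8 they did. The 7 were higher in siYBX1, a direction set by the choice of denominator, since 5 of them are over Fbl or Gar1, which have the negative log2 fold changes of their classes. The ratio of Polr1c to Polr1a was 1.54, 1.87 and 1.75 in siNC and 1.98, 2.19 and 1.99 in siYBX1, and that of Polr1d to Polr1a 0.453, 0.524 and 0.664 against 0.730, 0.998 and 0.718. The ratio of Polr1b to Polr1a overlapped, at 0.146 to 0.188 in siNC and 0.148 to 0.185 in siYBX1. Nop58 to Fbl was 0.377, 0.383 and 0.349 in siNC and 0.482, 0.432 and 0.473 in siYBX1, and Nop56 to Fbl was likewise higher in all 3 siYBX1 libraries. Nop58 to Nop56 overlapped. In the box H/ACA class Nop10, Nhp2 and Dkc1 were each higher relative to Gar1 in all 3 siYBX1 libraries, with Nhp2 to Gar1 at 5.18, 5.47 and 5.60 in siNC and 6.30, 6.12 and 6.45 in siYBX1.

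Of the 4 nucleolar chaperones and multifunctional proteins 1 rose and none fell. Npm1, the histone and ribosome chaperone nucleophosmin and the most abundant of the 45 per unit length, was at 278, 306 and 299 FPKM in siNC and at 357, 344 and 326 FPKM in siYBX1 (1.16-fold, log2 fold change 0.22 with SE 0.06, by limma adjusted p = 0.0319). The groups did not overlap, and the call was lost without siNC replicate 3 (adjusted p = 0.0757), siYBX1 replicate 1 (0.117) or siYBX1 replicate 2 (0.0981). With quantile normalization its log2 fold change was 0.10 (adjusted p = 0.135). At least 90% of the bases agreed over 200 or more aligned bases between Npm1 and 8 annotated processed pseudogenes, so its value depends on how shared reads were counted, which is not given in the sources used here. Ncl, the RNA-binding protein nucleolin, was at 91.0, 96.4 and 89.0 FPKM in siNC and at 111, 100.2 and 97.2 FPKM in siYBX1, groups that did not overlap (log2 fold change 0.15, adjusted p = 0.0974, limma). Its FPKM rests on a length of 8770 bases, 1.07 times its longest annotated coding transcript, so its level may be set low where transcripts are shorter. Lengths behind the FPKM were 3.09, 2.90, 2.26 and 2.15 times that transcript for Nop56, Taf1d, Gnl2 and Ubtf. They were 1.88, 1.77 and 1.52 times it for Polr1d, Rrp12 and Nat10, and 0.230 and 0.446 times it for Nop58 and Imp4. Levels per mRNA may be off for these genes too. Nolc1, a chaperone of snoRNPs, was 39.4 ± 1.61 and 37.7 ± 1.77 FPKM, and Mybbp1a, a nucleolar protein that binds MYB, 32.6 ± 2.73 and 31.7 ± 0.454 FPKM.

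Of the 15 genes for the small-subunit processome and 40S maturation 2 rose and 1 fell, with a median log2 fold change of 0.06. Imp3, Imp4 and Mphosph10 form a module that binds the U3 snoRNA. Imp3 was at 22.6, 24.4 and 25.7 FPKM in siNC and at 35.2, 28.2 and 29.7 FPKM in siYBX1 (1.28-fold, log2 fold change 0.34 with SE 0.08, by limma adjusted p = 0.0142). Its groups did not overlap, siYBX1 replicate 1 was the highest, and without that library the log2 fold change was 0.25. Imp4 was 20.02 ± 0.503 and 22.1 ± 0.793 FPKM (log2 fold change 0.14, adjusted p = 0.0883, limma), and Mphosph10 10.4 ± 0.399 and 11.3 ± 0.837 FPKM (0.10, adjusted p = 0.280). The ratio of Imp3 to Mphosph10 overlapped between the groups, and so did that of Imp3 to Imp4.

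Emg1, a methyltransferase of the small-subunit ribosomal RNA, was at 43.3, 43.9 and 48.3 FPKM in siNC and at 52.0, 55.6 and 49.4 FPKM in siYBX1 (1.16-fold, log2 fold change 0.21 with SE 0.06, by limma adjusted p = 0.0386). This was the least stable of the 8 calls, kept in 5 of 14 other settings. It was lost with quantile normalization (adjusted p = 0.0696), after rescaling to TPM (0.0774) and without siNC replicate 1 (0.0665), siNC replicate 2 (0.0985), siYBX1 replicate 1 (0.0944) or siYBX1 replicate 2 (0.139). Exons of Lpcat3, on the opposite strand, overlap 334 bases of Emg1 exons in the GENCODE annotation, and without known strandedness reads there cannot be told apart.

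Utp20, a large scaffold protein of the processome, was at 7.61, 6.57 and 6.61 FPKM in siNC and at 5.57, 5.07 and 5.44 FPKM in siYBX1 (0.773-fold, log2 fold change -0.32 with SE 0.07, by limma adjusted p = 0.0110). Every siYBX1 library lay below every control, and the call held when any 1 library was left out. The next lowest was Rrp12, which takes part in the export and maturation of both subunits, at 4.50, 3.82 and 3.96 FPKM in siNC and 3.51, 3.41 and 3.26 FPKM in siYBX1. Its log2 fold change of -0.21 did not pass (adjusted p = 0.0566, limma) but did with TPM (0.0406) and with voom (0.0285). Nat10, which acetylates ribosomal RNA, and Heatr1, a subunit of an early processome module, also had groups that did not overlap and lower values in siYBX1, with log2 fold changes of -0.15 and -0.09 (adjusted p = 0.172 and 0.288, limma). On the other side Tsr1 and Ltv1, late factors of the pre-40S particle, had groups that did not overlap with log2 fold changes of 0.17 and 0.15 (adjusted p = 0.0600 and 0.0717, limma). Exons of Srr, on the opposite strand, overlap 1240 bases of Tsr1 exons, where reads likewise cannot be told apart without known strandedness. Nop14 had 16.1 ± 0.430 FPKM in siNC and 16.8 ± 0.0540 FPKM in siYBX1. The U3 protein gene Rrp9 and the processome genes Utp4, Utp15 and Bysl had overlapping groups, with log2 fold changes of 0.13, 0.05, -0.05 and -0.02.

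Of 11 genes for 60S assembly 1 rose and none fell, and 9 had a positive log2 fold change. Ebna1bp2, an assembly factor of the early pre-60S particle, was at 10.7, 11.7 and 12.0 FPKM in siNC and at 14.0, 14.1 and 14.3 FPKM in siYBX1 (1.23-fold, log2 fold change 0.28 with SE 0.06, by limma adjusted p = 0.00806). The siYBX1 libraries lay close together and above every control. Among the 8 calls it was the only one kept in all 14 other settings. Nifk, a nucleolar protein that binds Ki-67, was at 25.1, 29.3 and 28.5 FPKM in siNC and at 33.2, 31.9 and 29.9 FPKM in siYBX1, groups that did not overlap (log2 fold change 0.19, adjusted p = 0.0667, limma). Nop16 had a log2 fold change of 0.15 (adjusted p = 0.110, limma), and passed without siYBX1 replicate 3 (0.22, adjusted p = 0.0405).

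Pes1, Bop1 and Wdr12 form the PeBoW complex, which is needed to process the large-subunit ribosomal RNA. Pes1 was 45.5 ± 1.11 and 48.2 ± 2.07 FPKM, Bop1 34.5 ± 2.52 and 31.8 ± 1.22 FPKM, and Wdr12 3.02 ± 0.281 and 3.13 ± 0.0947 FPKM. Their log2 fold changes of 0.08, -0.11 and 0.04 did not pass (adjusted p = 0.283, 0.210 and 0.724, limma), and the ratios of Pes1 and of Wdr12 to Bop1 overlapped between the groups. Rrp1, the third most abundant of the 45 at 114 ± 1.68 and 118 ± 1.67 FPKM, had a log2 fold change of 0.06 with a 95% confidence interval of -0.05 to 0.17. The GTPase genes Gnl2, Gnl3 (nucleostemin) and Gnl3l had log2 fold changes of 0.13, 0.01 and -0.09, and Rrs1 had 0.04. None of these 4 passed.

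The rest of the pathway was read from fixed lists. Of 163 further genes listed, 157 had a row and 156 were tested, and 13 rose and 6 fell (12.2% called, against 20.6% of all genes), with a median log2 fold change of 0.02. With TPM 7 rose and 11 fell. The number called was 10 without siNC replicate 3, 9 without siYBX1 replicate 1 and 10 without siYBX1 replicate 2. In the processome and 40S list 6 of 47 rose and 1 fell. Riok3, a kinase of late 40S maturation, rose from 33.6 ± 2.73 to 40.7 ± 0.971 FPKM (adjusted p = 0.0126, limma, lost without siYBX1 replicate 1), and Dcaf13 from 41.2 ± 2.69 to 49.4 ± 0.855 FPKM (adjusted p = 0.0110, kept without any 1 library). Utp25 fell from 2.26 ± 0.0197 to 1.80 ± 0.145 FPKM (adjusted p = 0.0453), a call lost without any 1 of the 6 libraries. In the 60S list 3 of 54 rose and 2 fell. The helicase gene Ddx54 had a log2 fold change of 0.28 and Rsl1d1 0.24 (adjusted p = 0.0167 and 0.0104, limma), while Senp3, a SUMO protease that acts on nucleolar proteins, fell from 27.5 ± 0.287 to 22.6 ± 0.721 FPKM (adjusted p = 0.00433) and Urb1 had -0.24 (adjusted p = 0.0472). Ddx54 lost its call without siNC replicate 2, siNC replicate 3 or siYBX1 replicate 3, and Urb1 kept it only without siYBX1 replicate 3. In the exosome list 2 of 18 rose and none fell. Mphosph6, a cofactor of the nuclear RNA exosome, rose from 12.9 ± 0.171 to 17.8 ± 1.65 FPKM (log2 fold change 0.43 with SE 0.07, by limma adjusted p = 0.00204), and Rexo4 from 22.8 ± 1.00 to 26.2 ± 0.946 FPKM (adjusted p = 0.0307, kept without siNC replicate 2 or without siYBX1 replicate 3).

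Myc, the growth regulator named above, rose from 10.5 ± 0.649 FPKM to 13.7 ± 1.52 FPKM (SD, n = 3 each; log2 fold change 0.35 with SE 0.08, by limma adjusted p = 0.0110), higher in 3 of 3 libraries. Mxd3, which competes with MYC for its partner MAX, fell from 7.94 ± 0.800 to 4.95 ± 0.286 FPKM (log2 fold change -0.58 with SE 0.08, by limma adjusted p = 0.000803). Both calls held without any 1 library. Max, named here because it is the partner of both, was 0.09 higher on the log2 scale (adjusted p = 0.262, limma) and none of the other 6 tested genes of that list passed.

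Gene length moved with the fold changes. Lengths were recovered from the steps of the FPKM values. Among the 45 genes they ran from 0.230 times the longest annotated coding transcript, for Nop58, to 3.09 times it, for Nop56. Over all genes tested the median log2 fold change went from 0.08 in the shortest quintile of length to -0.07 in the longest, and 19.0% of the shortest quintile were called higher, against 3.48% of the longest. Of the 45 genes 10 lay in the shortest quintile, with 4 called higher (Polr1c, Npm1, Imp3 and Emg1), 12 in the next, with 2 called higher (Polr1d and Nop58), and 11 in the middle, with 1 called higher (Ebna1bp2). Among the 5 and 7 genes of the longer quintiles none was called higher, and 1 of the longest, Utp20 at 8831 bases, was called lower. Over all genes tested, 12.1% of the next-shortest quintile and 7.74% of the middle one were called higher. Called lower were 14.4% of all genes in the longest quintile, against 6.24% in the shortest. Across the 45 genes, which share the same libraries, Pearson's r between log2 length and log2 fold change was -0.54, against -0.24 across all genes tested. After a loess correction for length 8 rose and 2 fell, against 10.4% and 9.99% of all genes. Emg1 then lost its call (0.13, adjusted p = 0.125, limma), while Nop56 (0.20, adjusted p = 0.0356), Ncl (0.22, adjusted p = 0.0483) and Gar1 (-0.17, adjusted p = 0.0474) passed. For Nop56 the correction rests on a recovered length of 5807 bases, beside 1877 bases in its longest annotated coding transcript. For Ncl it rests on 8770 bases, which may be too long where its transcripts are shorter, as said above. Polr1d stayed at 0.50, Ebna1bp2 at 0.29 and Utp20 at -0.25, and Polr1c went to 0.16.

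**Figure D3:**
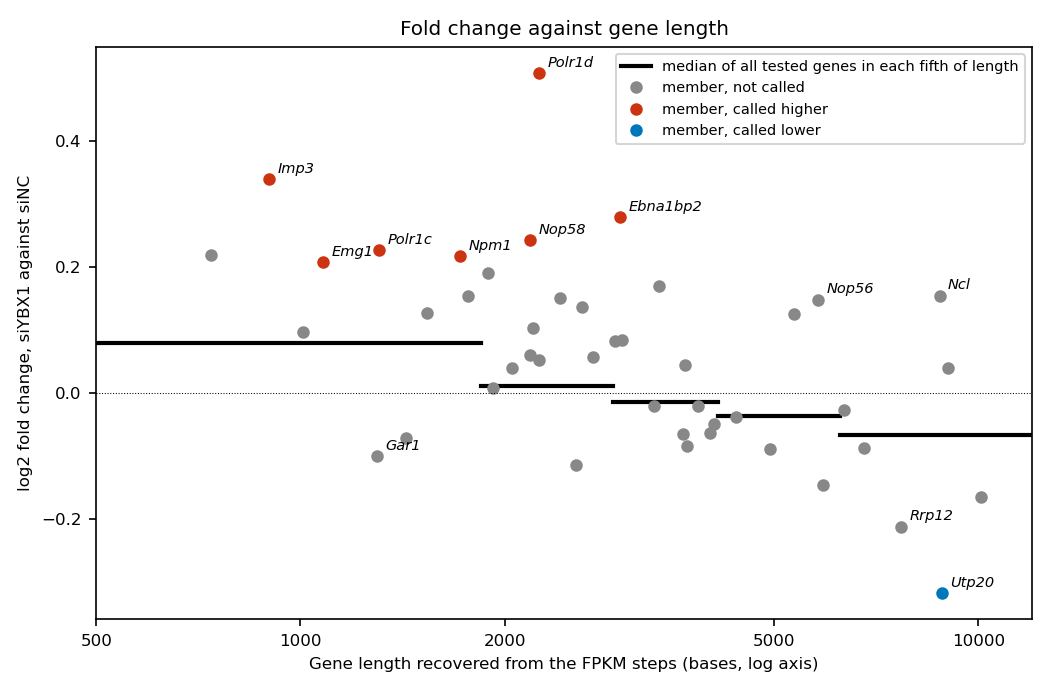
Log2 fold change is plotted against gene length on a log axis, with 1 point for each of the 45 genes and black bars for the median of all tested genes in each quintile of length. The bars step down from 0.08 to -0.07, and the called rises lie at lengths of up to 2960 bases.

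Several of these genes carry snoRNA genes in their introns, so that the host gene and the guides of its own pathway are transcribed together. In the GENCODE annotation 7 of the 45 had snoRNA genes inside them on the same strand, namely Taf1d with 8, Nop56 with 5, Nop58 with 4, Ncl and Gnl3 with 3 each, Tsr1 with 2 and Dkc1 with 1. Of these 7 hosts Nop58 rose and the other 6 did not pass, with log2 fold changes from -0.02 for Taf1d to 0.17 for Tsr1. The snoRNAs themselves were not analysed here. Exons of genes on the opposite strand overlapped those of 18 of the 45, and 12 had at least 1 similar processed pseudogene, so their values depend on how reads were assigned.

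**Figure D4:**
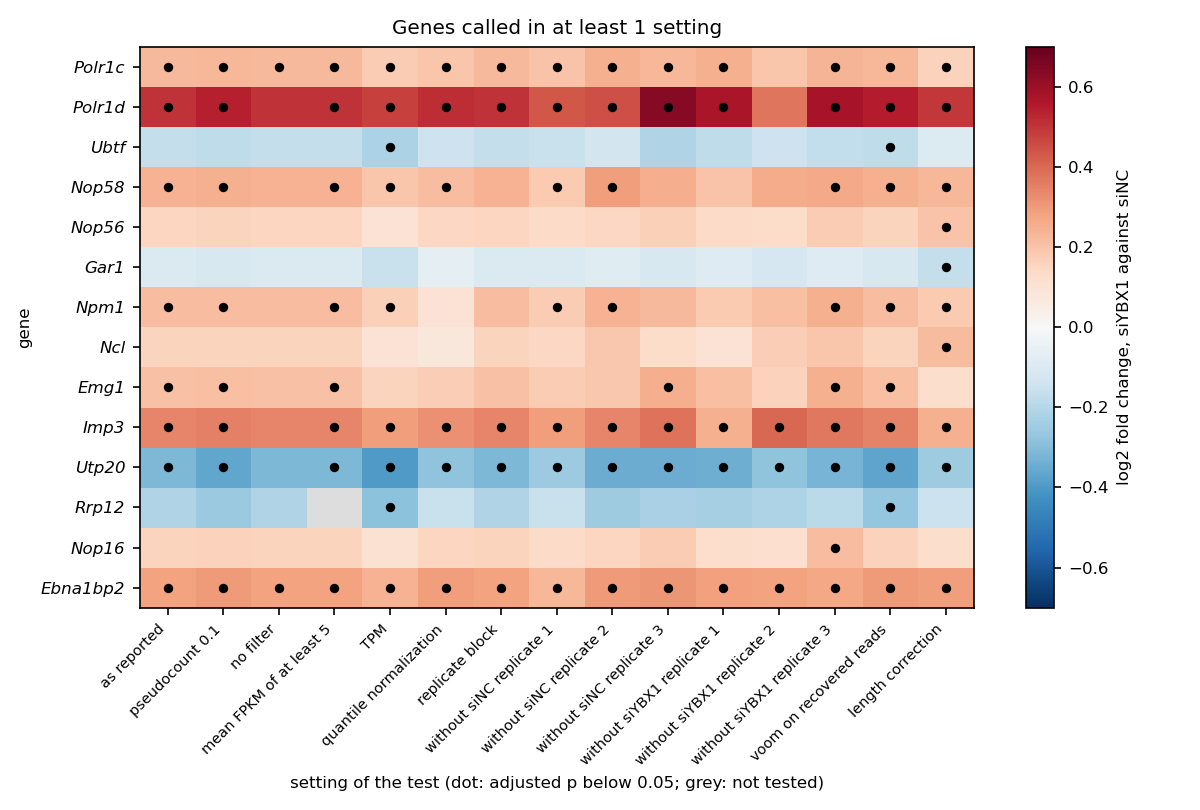
Each cell gives the log2 fold change of 1 of the 14 genes that passed in at least 1 setting, under each of 15 settings of the test, with a dot where the adjusted p was below 0.05. Polr1c, Polr1d, Imp3, Utp20 and Ebna1bp2 carry dots in nearly every column, and the remaining genes in fewer.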

How the data were processed

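Each of the 6 libraries was made from 1.3 µg of RNA of differentiated C3H10T1/2 cells (labels' protocols). Tools named per the submitters' processing notes are HTSeq, HISAT2 and fastp, with the build GRCm39 and no versions or roles. The authors deposited 1 table of FPKM values, whose columns were matched to samples by group name and number. Library totals and gene lengths were recovered from the FPKM steps of 1 read, with a tolerance of 0.02 reads, for 16423 of 16423 genes. The length taken was the shortest that made the reads near-whole in all libraries. Such a length can exist for a gene with few reads without being the true one, so this count does not check the lengths. At these depths a single read is worth 0.0141 to 0.0156 FPKM for 2 kb of gene.

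Values were tested as log2(FPKM + 1), which understates changes of low genes, where the mean over libraries reached 1 FPKM. The tool was limma 3.58.1 with its trend option, two-sided and without covariates, in R 4.3.3, and it was checked on simulated data. Ratios called fold are of mean FPKM. Named were all 45 genes and, from each further list, up to 2 called rises and 2 called falls. The genes and lists were chosen with earlier results of these data known. Alternatives were a pseudocount of 0.1, no filter, a filter at 5 FPKM, TPM, quantile normalization, a replicate block and leaving out each library. Voom on reads (a mean of at least 10) and a loess length correction (span 0.3) were chosen after seeing the data. Promoters came from RefSeq (GRCm38.p6), and overlaps, snoRNA genes and transcripts, aligned with minimap2, from GENCODE vM21, another build than GRCm39. Python 3.11.15 was used.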

Additional observations from a re-analysis of the deposited data

How the results depend on the processing

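Of 625 pairs of a gene among the 45 and an alternative, 574 kept direction and side of the threshold, 25 lost a call, 8 gained one and 18 turned in sign without being called. Ybx1 stayed called lower in all 14 alternatives. With no filter on low values, 16423 genes were tested, and 1241 passed over all genes, 2 of the 45 (Polr1c and Ebna1bp2) and 8 of the other pathway genes. Without 1 library these counts ran from 1199 to 2026, from 3 to 9 and from 9 to 18. The labels do not state whether the replicate numbers pair the samples. Same-numbered libraries correlated at -0.31, -0.13 and -0.25 after removal of group means, and libraries of unlike number at -0.13 to 0.26. With 3 libraries a group these values cannot decide whether the samples are paired. With the replicate block 1346 genes, 5 of the 45 and 9 other pathway genes passed.

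Signs turned for genes near 0. With the length correction Polr1a was 0.029, Bysl 0.0011 and Gnl3 -0.014. With quantile normalization Bysl was 0.00996, Rrp1 -0.012 and Gnl3 -0.028, and with TPM Rrs1 was -0.0083 and Gnl3 -0.043. Without 1 library Polr1a ran from -0.065 to 0.0196, Polr1e from -0.021 to 0.122, Mybbp1a from -0.088 to 0.025, Utp15 from -0.102 to 0.051, Bysl from -0.093 to 0.049, Wdr12 from -0.0051 to 0.094, Rrs1 from -0.0058 to 0.123 and Gnl3 from -0.032 to 0.05999. The cause was not tested. Precision is limited by 3 libraries a group. The genes with the fewest reads were Gar1 (255 to 306 reads a library), whose sign did not turn, and Polr1e (289 to 403). The part of counting error in these values was not tested.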
